A study of Mus musculus with 6 samples.

Results

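The fibroblast growth factor (FGF) genes described here are 9 ligands with known roles in skin and hair follicle: Fgf1, Fgf2, Fgf5, Fgf7, Fgf10, Fgf13, Fgf18, Fgf21 and Fgf22. They were taken by symbol from a deposited table of 35434 genes, and all 9 were present. The libraries came from lesional skin of mice with a psoriasis model that had been given regulatory T cells (Tregs), either control cells (Ctrl-Treg, 3 libraries) or cells treated with lenvatinib (Lenv-Treg, 3 libraries). Every mouse thus carried the disease model and received transferred cells, and the labels name the cells, not the mice, as treated with the drug. Strain, age, the way the disease was induced and the number of mice per library were not given in the sources used here, and the p-values therefore reflect only how far these 6 libraries spread, which may be technical. The comparison asks how the skin of mice given the drug-treated cells differed from that of mice given control cells.

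As background, most FGFs are secreted proteins that bind FGF receptor tyrosine kinases on neighbouring cells, with heparan sulfate as a cofactor, and signal through RAS and MAP kinases. Fgf7 (keratinocyte growth factor) and Fgf10 are made by dermal and follicular mesenchyme and act on epithelium through the epithelial splice form of FGFR2, and Fgf22, of the same subfamily, is made by epithelium. Fgf5 ends the growth phase of the hair cycle, Fgf18 is linked to the resting follicle, and Fgf1 and Fgf2 leave cells without a classical signal peptide. Fgf13 belongs to the intracellular FGF homologous factors, which bind sodium channels, and is counted here among the ligands by its family name only. Fgf21 is a hormone-like FGF that needs the co-receptor beta-Klotho (Klb). Lenvatinib inhibits kinases that include the FGF receptors.

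The sequences just upstream of the start sites of Fgf7, Fgf10 and Fgf22 are shown because these ligands form 1 subfamily yet Fgf10 fell and Fgf7 did not pass the test. They are RefSeq windows on build GRCm38.p6, plus strand, not the build of the deposited files: chr2:126034408-126034657 for Fgf7, chr13:118714449-118714698 for Fgf10 and chr10:79754859-79755050 for Fgf22, each ending at the base before the first annotated start of the gene (250, 250 and 192 bases). Capitals mark GC boxes, searched as GGGCGG on both strands.
Fgf7: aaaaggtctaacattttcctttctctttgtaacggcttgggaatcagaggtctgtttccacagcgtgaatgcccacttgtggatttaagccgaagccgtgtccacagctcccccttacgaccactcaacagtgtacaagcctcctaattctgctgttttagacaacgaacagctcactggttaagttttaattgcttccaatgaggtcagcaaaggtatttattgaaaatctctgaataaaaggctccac
Fgf10: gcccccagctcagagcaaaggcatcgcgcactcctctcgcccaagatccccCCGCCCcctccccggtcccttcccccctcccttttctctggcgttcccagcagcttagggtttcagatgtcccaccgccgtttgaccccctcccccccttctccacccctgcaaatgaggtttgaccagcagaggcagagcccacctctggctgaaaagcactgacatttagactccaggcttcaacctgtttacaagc
Fgf22: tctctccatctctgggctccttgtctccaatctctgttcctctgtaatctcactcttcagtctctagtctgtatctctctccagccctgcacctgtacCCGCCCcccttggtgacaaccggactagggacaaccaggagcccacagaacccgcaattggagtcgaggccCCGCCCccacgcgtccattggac
The Fgf7 window held 0 GC boxes, the Fgf10 window 1 and the Fgf22 window, of 192 bases, 2. The window of 250 bases used for Fgf22 in what follows held 3. In windows of 250 bases before a start site, 32.7% of 32851 mouse promoters held a GC box, as did at least 1 window of 7 of the 8 ligands with an entry: Fgf2, Fgf5, Fgf10, Fgf13, Fgf18, Fgf21 and Fgf22. In these windows of 250 bases, Fgf7 had 43.6% G and C, against a median of 52.4% over all promoters, while Fgf10 and Fgf22 had 61.2% and 62.4%. A TATA box (TATAAA) was found before Fgf21 alone (12.4% of all promoters), an AP-1 site (TGANTCA) before 1 of the 4 start sites of Fgf13 (6.75%), and a TCF/LEF core (CTTTGAT) before none of the 8 (3.21%), all on both strands. The printed windows held none of the last 3 motifs, so no match overlapped another motif there. These are matches of letters in a window, not binding sites.

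Values are FPKM as deposited by the authors, which scale the reads of a gene by its length and by the assigned reads of the library. Depth was 38704536 to 40248462 assigned reads per library, as recovered from the values. Genes with at least 0.5 FPKM in at least 3 libraries were tested with limma on log2(FPKM + 1), and a difference is the Lenv-Treg mean minus the Ctrl-Treg mean on that scale, which understates changes of low genes. Of 13945 genes tested, 41.7% passed an adjusted p of 0.05, 30.8% of all tested genes as lower and 11% as higher in Lenv-Treg. The median difference over all tested genes was -0.17. It was 0.00 after scaling by medians of ratios and -0.44 after rescaling to TPM. Keratinocyte markers, the defining markers of skin, were present. Their summed level was 2828 to 4650 FPKM in Ctrl-Treg skin and 11436 to 12904 FPKM in Lenv-Treg. Mean FPKM rose most for Krt14 (769 to 4428), Krt16 (50.8 to 2271) and Krt6a (64.2 to 2111). Of the 12 tested keratinocyte markers 7 rose and 1 fell, and Trp63 was at 28.6 and 26.3 FPKM (limma adjusted p = 0.380). The sum therefore does not measure the amount of keratinocytes. In the same Lenv-Treg libraries, 10 of 14 tested macrophage and neutrophil markers rose and 1 fell. The summed levels of these markers were 2200 to 2862 FPKM in Ctrl-Treg skin and 41403 to 57543 FPKM in Lenv-Treg. S100a8 and S100a9 alone made up most of the Lenv-Treg sum. Mean S100a8 was 46.9 FPKM in Ctrl-Treg skin and 21890.5 FPKM in Lenv-Treg, and mean S100a9 was 56.3 and 24392 FPKM.

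Fgf2, Fgf10, Fgf13 and Fgf22 fell in Lenv-Treg, by 2.12-fold to 3.66-fold in mean FPKM. Fgf1 and Fgf7 did not pass the test. Fgf5 and Fgf18 were too low for the filter, and all 3 Lenv-Treg libraries lay below all 3 Ctrl-Treg libraries for both. Fgf21 was near the limit of detection in both groups. Of the 6 ligands that passed the filter 4 were called lower and 0 higher by limma (0 higher at an unadjusted p of 0.05, and 0 with voom on recovered reads), to be read against the 30.8% and 11% of all tested genes. The median difference of the 6 was -0.64, or -0.54 after median-ratio scaling and -1.03 as TPM. Groups did not overlap for 4 of the 6, all lower, where 55.4% of all tested genes had groups without overlap and 41% of all tested genes did so as lower. The count of lower ligands was 3 after median-ratio scaling, where 34.7% of all tested genes were called (17.3% lower and 17.3% higher), and 3 after quantile normalization, where 32.5% were called (16.5% lower and 16% higher). It was 4 as TPM, where 63.9% were called (57.2% lower and 6.79% higher). A further pair of fits took in all 9 ligands. With voom on all genes of at least 10 recovered reads 6 of 9 were lower, with Fgf5 and Fgf18 added, where 34.2% were called (25.4% lower and 8.73% higher), and with limma and no filter 4 of 9 were lower, with Fgf5 gained and Fgf22 lost, where 21.7% were called (16% lower and 5.77% higher).

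**Figure D1:**
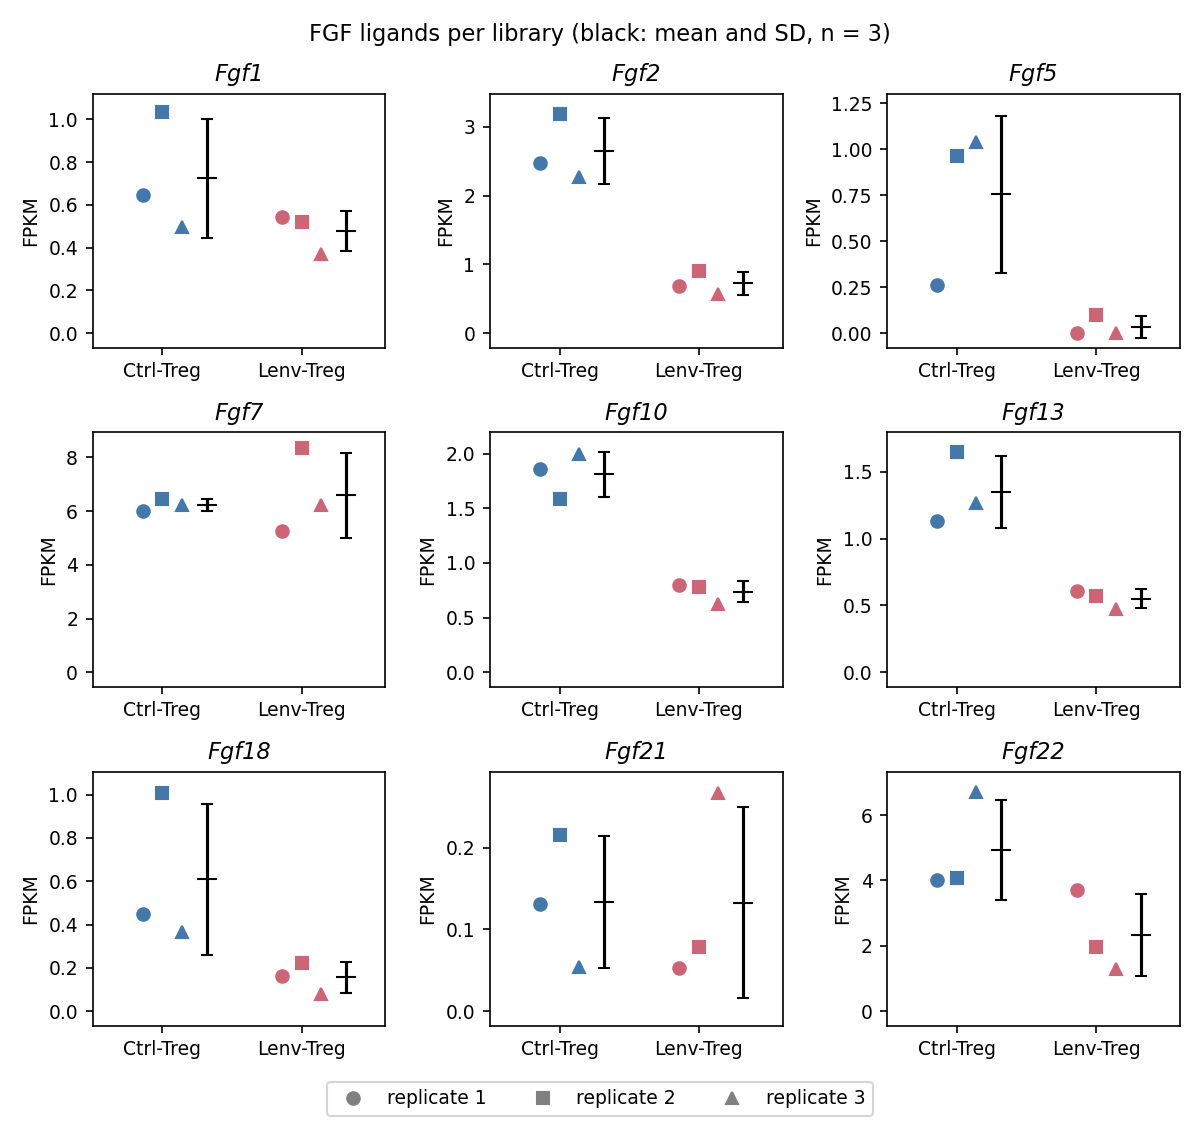
FPKM of each of the 9 FGF ligands (vertical axes, each with its own scale) in the 3 Ctrl-Treg (blue) and 3 Lenv-Treg (red) libraries, with marker shapes for replicates and the group mean and SD in black. The groups do not overlap for Fgf2, Fgf5, Fgf10, Fgf13, Fgf18 and Fgf22, and they overlap for Fgf1, Fgf7 and Fgf21.

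The mesenchymal ligands of the Fgf7 subfamily differed from each other. Fgf7, the growth factor of keratinocytes that gave the subfamily its name, was at 6.02, 6.44 and 6.21 FPKM in the Ctrl-Treg libraries and 5.24, 8.33 and 6.21 FPKM in the Lenv-Treg libraries. The 3 control libraries lay close together, and the lowest and the highest of all 6 values were both in Lenv-Treg. Group means were 6.22 ± 0.213 and 6.59 ± 1.58 FPKM (SD, n = 3), and the difference was 0.05 (95% interval -0.29 to 0.40, limma adjusted p = 0.798). Its sign turned after rescaling to TPM (-0.21) and without Lenv-Treg replicate 2 (-0.11), with no call in either case.

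Fgf10, a mesenchymal ligand required for the growth of epithelial buds, was at 1.86, 1.58 and 1.99 FPKM in Ctrl-Treg skin and 0.802, 0.778 and 0.627 FPKM in Lenv-Treg. Every Lenv-Treg library was well below every Ctrl-Treg library. The mean fell 2.46-fold, from 1.81 ± 0.209 to 0.736 ± 0.0950 FPKM (difference -0.69, SE 0.10, limma adjusted p = 0.00142). These values rest on 887 and 366 reads over the groups. Gm16263, an antisense transcript that shares 123 exon bases with Fgf10 in GENCODE M21, had 19 and 3 reads. Whether counting used strand is not given in the sources used here, and without strand the reads of overlapping genes cannot be told apart.

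Fgf22, the epithelial member of the subfamily, was at 4.03, 4.07 and 6.70 FPKM in Ctrl-Treg skin and 3.71, 1.98 and 1.29 FPKM in Lenv-Treg. The groups lay side by side without overlap, with Lenv-Treg replicate 1 just under the lowest control library. The mean was 4.93 ± 1.53 FPKM in Ctrl-Treg skin and 2.33 ± 1.25 FPKM in Lenv-Treg (difference -0.87, SE 0.28, limma adjusted p = 0.0408). Leaving out any 1 of 5 libraries ended the call (adjusted p from 0.0559 to 0.115), and so did median-ratio scaling (adjusted p = 0.0850), quantile normalization (adjusted p = 0.125) and a fit with no filter on low values (adjusted p = 0.107). Only without Lenv-Treg replicate 1, of the 6 libraries left out in turn, did it hold (adjusted p = 0.0105). Rnf126, on the opposite strand, shares 82 exon bases with Fgf22 and had 6520 and 8188 reads over the groups.

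A ratio of 2 ligands within a library does not depend on the scaling between libraries, but it uses the same values as above. The ratio of Fgf7 to Fgf10 FPKM was 3.24, 4.07 and 3.12 in Ctrl-Treg skin and 6.54, 10.7 and 9.91 in Lenv-Treg. All 3 Lenv-Treg ratios exceeded all 3 control ratios (means 3.48 ± 0.520 and 9.05 ± 2.21, SD, n = 3, exact permutation p = 0.1, two-sided, the smallest that 3 against 3 libraries allow). The ratio of Fgf7 to Fgf22 was 1.49, 1.58 and 0.926 in Ctrl-Treg skin and 1.41, 4.21 and 4.82 in Lenv-Treg. These overlapped, since Lenv-Treg replicate 1 lay among the controls (exact permutation p = 0.3).

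The ligands without a signal peptide came next. Fgf2 (basic FGF), a mitogen of fibroblasts and endothelial cells, was at 2.47, 3.19 and 2.28 FPKM in Ctrl-Treg skin and 0.693, 0.900 and 0.578 FPKM in Lenv-Treg. The highest Lenv-Treg library was under the lowest control library by a wide margin, and of the 6 tested ligands this was the largest difference. The mean fell 3.66-fold, from 2.64 ± 0.480 to 0.724 ± 0.164 FPKM (difference -1.08, SE 0.12, limma adjusted p = 0.000666). Over the groups there were 2267 and 630 reads. Nudt6, transcribed from the opposite strand, shares 640 exon bases with Fgf2 in GENCODE M21. It was at 1.30 ± 0.204 FPKM in Ctrl-Treg skin and 1.01 ± 0.120 FPKM in Lenv-Treg (adjusted p = 0.169) and passed as lower after rescaling to TPM (difference -0.44, adjusted p = 0.0269). Gm43439, on the same strand as Fgf2, shares 255 exon bases with it, and was not analysed here.

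Fgf1 (acidic FGF), which can bind all FGF receptors, was at 0.647, 1.03 and 0.494 FPKM in Ctrl-Treg skin and 0.544, 0.518 and 0.371 FPKM in Lenv-Treg. The groups overlapped, because Ctrl-Treg replicate 3 lay below 2 of the Lenv-Treg libraries. Means were 0.725 ± 0.278 and 0.478 ± 0.0930 FPKM, a difference of -0.21 (95% interval -0.51 to 0.09, limma adjusted p = 0.217) that was 0.06 after quantile normalization. The gene length behind these values was 19443 bases, against 5463 exon bases for Fgf1 in GENCODE M21.

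Fgf13, the intracellular member of the family, was at 1.13, 1.65 and 1.26 FPKM in Ctrl-Treg skin and 0.610, 0.568 and 0.470 FPKM in Lenv-Treg. All 3 Lenv-Treg libraries lay under the lowest control. The mean fell 2.45-fold, from 1.35 ± 0.270 to 0.549 ± 0.0718 FPKM (difference -0.59, SE 0.11, limma adjusted p = 0.00437), on 1459 and 605 reads. The length used for Fgf13 was 9187 bases, against 4019 exon bases in GENCODE M21. The calls of Fgf2, Fgf10 and Fgf13 held in each of the 18 alternative fits that tested them.

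**Figure D2:**
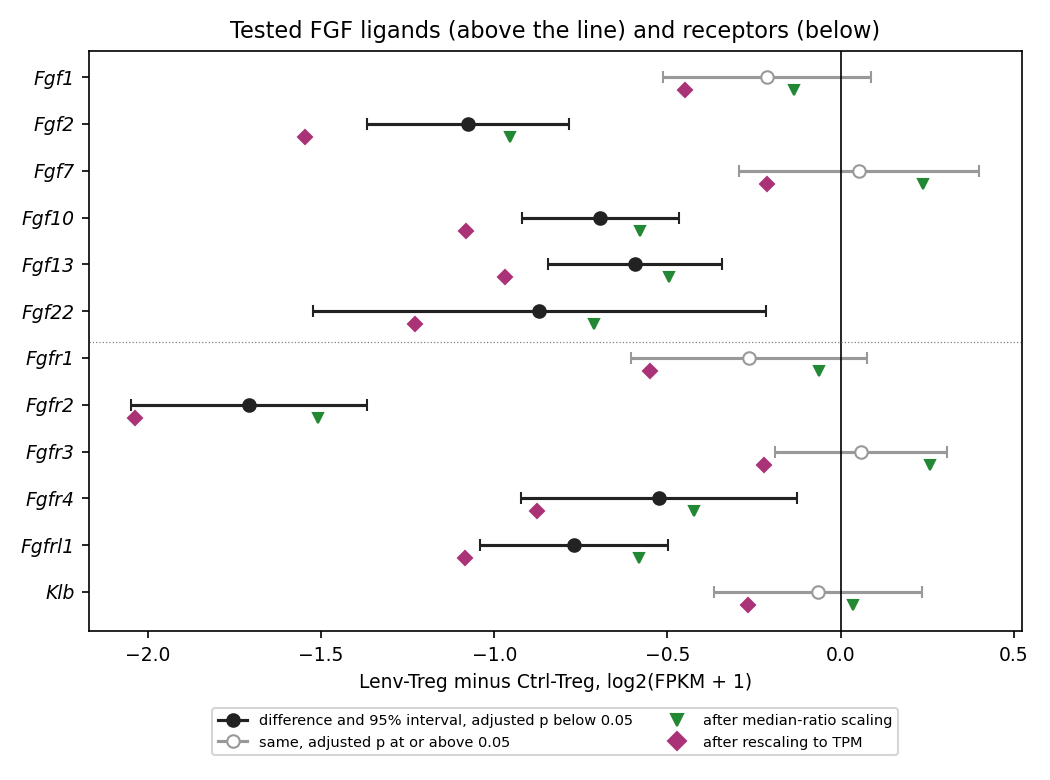
Difference between Lenv-Treg and Ctrl-Treg (horizontal axis, log2(FPKM + 1) units) with its 95% interval for the 6 tested FGF ligands above the dotted line and the 6 tested receptors and co-receptors below it; filled circles passed limma's adjusted p of 0.05. Triangles and diamonds give the value after median-ratio scaling and after rescaling to TPM. Fgf7, Fgfr3 and Klb lie on both sides of 0, and all other genes shown lie left of 0 under all 3.

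The hair cycle ligands were scarce. Fgf5, the signal that ends hair growth, had 26, 92 and 98 reads in the Ctrl-Treg libraries (0.265, 0.963 and 1.04 FPKM) and 0, 10 and 0 reads in the Lenv-Treg libraries (0, 0.102 and 0 FPKM). Among controls, replicate 1 was low, and in Lenv-Treg all reads came from replicate 2. Mean FPKM was 22.2-fold higher in Ctrl-Treg (0.755 ± 0.426 against 0.0340 ± 0.0588). It was 14.8-fold higher without Lenv-Treg replicate 1 or 3, and 18.1-fold to 29.5-fold higher without a single control library. Without Lenv-Treg replicate 2, the only Lenv-Treg library with reads, it was at least 48.9-fold higher. That bound sets the Lenv-Treg group to a floor of 3 reads in all, which covers counting error only. Because it missed the filter, Fgf5 has the exact permutation p of 0.1 (two-sided) as its main test. With no filter limma gave an adjusted p of 0.0438, in a fit that called 16% of genes lower, and voom on recovered reads of genes with at least 10 reads gave 0.0116, where 25.4% were lower.

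Fgf18, a ligand expressed in resting follicles, had 28, 61 and 22 reads in Ctrl-Treg (0.450, 1.01 and 0.368 FPKM) and 10, 14 and 5 reads in Lenv-Treg (0.162, 0.225 and 0.0817 FPKM). Each Lenv-Treg library was below each control, and Ctrl-Treg replicate 2 was more than 2 times as high as the other controls. The ratio of means was 3.90 (0.608 ± 0.348 against 0.156 ± 0.0718 FPKM, exact permutation p = 0.1, two-sided). It did not pass in limma with no filter (adjusted p = 0.0872) and passed with voom on genes of at least 10 reads (adjusted p = 0.0349).

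Fgf21, the endocrine member, had 5, 8 and 2 reads in Ctrl-Treg skin and 2, 3 and 10 reads in Lenv-Treg. The group sums were equal, at 15 reads each, and the highest library was in Lenv-Treg (exact permutation p = 0.9). The ratio of Ctrl-Treg to Lenv-Treg mean FPKM was 1.01, and leaving out single libraries moved it between 0.700 and 2.03, so no difference was detectable at this depth.

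Fgf7 took first place in both groups when ligands were ordered by level per length. In Ctrl-Treg the order of mean FPKM was Fgf7, Fgf22, Fgf2, Fgf10, Fgf13, Fgf5, Fgf1, Fgf18 and Fgf21. Ranges of neighbours overlapped for Fgf7 and Fgf22, for Fgf10 and Fgf13, for Fgf5 and Fgf1, and for Fgf1 and Fgf18, and were apart for the others. In Lenv-Treg the order was Fgf7, Fgf22, Fgf10, Fgf2, Fgf13, Fgf1, Fgf18, Fgf21 and Fgf5. There Fgf7 stood clear of Fgf22, Fgf22 of Fgf10, and Fgf1 of Fgf18, while the other neighbours overlapped. The order rests on the gene lengths behind the deposited values, which differ most from GENCODE M21 for Fgf1 and Fgf13. At the exon lengths of GENCODE M21 the order in Ctrl-Treg would be Fgf7, Fgf22, Fgf13, Fgf2, Fgf1, Fgf10, Fgf18, Fgf5 and Fgf21. In Lenv-Treg it would be Fgf7, Fgf1, Fgf22, Fgf13, Fgf2, Fgf10, Fgf18, Fgf21 and Fgf5, with Fgf1 at 1.70 and Fgf13 at 1.26 FPKM. Fgf7 was first and Fgf5 last in Lenv-Treg with either set of lengths.

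The summed level of the 9 ligands was 17.0, 20.1 and 20.4 FPKM in Ctrl-Treg skin and 11.8, 13.5 and 9.89 FPKM in Lenv-Treg. All Lenv-Treg sums were below all control sums (exact permutation p = 0.1). As a share of that sum, which no scaling between libraries affects, Fgf7 made up 35.4%, 32.0% and 30.4% in Ctrl-Treg skin and 44.4%, 61.8% and 62.8% in Lenv-Treg. Its share was thus larger in every Lenv-Treg library while its FPKM overlapped (exact permutation p = 0.1 for the share). The larger share restates the lower values of other ligands given above and is no separate evidence. Fgf2 took 14.5%, 15.8% and 11.2% in Ctrl-Treg skin and 5.86%, 6.68% and 5.84% in Lenv-Treg. The share of Fgf22 overlapped, at 23.7%, 20.2% and 32.9% against 31.4%, 14.7% and 13.0%. That of Fgf1 overlapped too (means 3.79% ± 1.35 and 4.07% ± 0.468, SD, n = 3). At the exon lengths of GENCODE M21 the share of Fgf7 would be 23.3% to 27.9% in the control libraries and 36.6% to 51.6% in the Lenv-Treg libraries, again without overlap, and that of Fgf1 would be 12.7% and 14.5% on average.

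**Figure D3:**
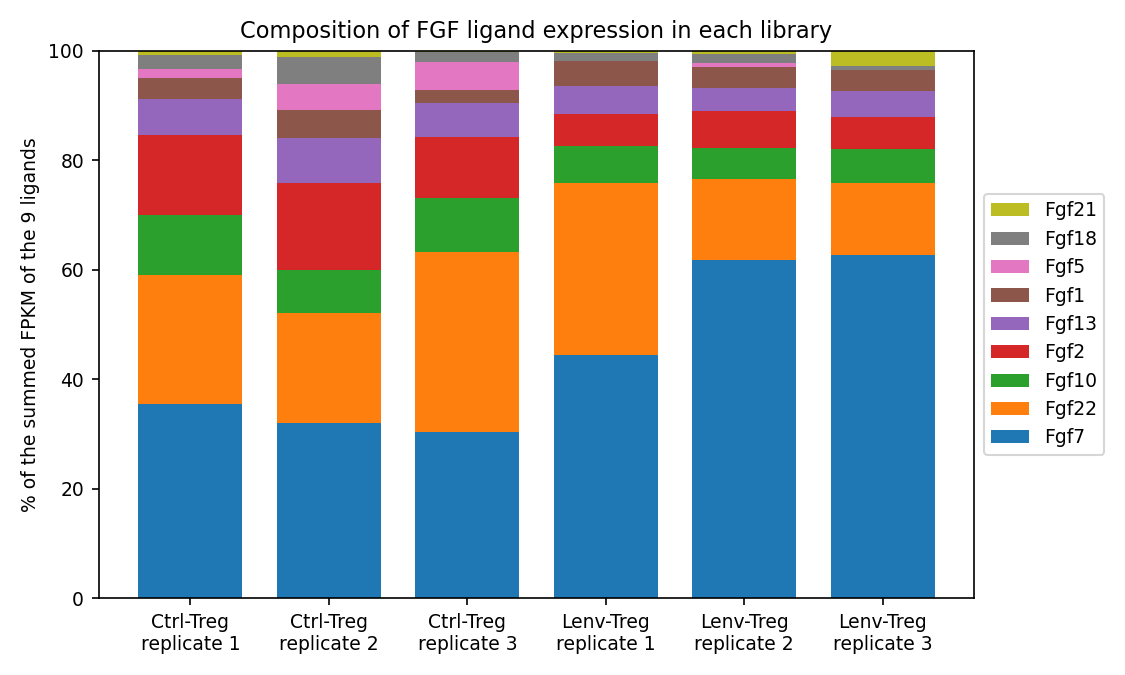
Share of each FGF ligand in the summed FPKM of all 9 (vertical axis, percent) in each of the 6 libraries (bars). Fgf7 (bottom, blue) takes 30.4% to 35.4% in Ctrl-Treg skin and 44.4% to 62.8% in Lenv-Treg, while Fgf2 (red) takes 11.2% to 15.8% and 5.84% to 6.68%.

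Libraries of 1 group differed among themselves in a ligand-dependent way. In Ctrl-Treg, replicate 2 was the highest library for 6 ligands (Fgf1, Fgf2, Fgf7, Fgf13, Fgf18 and Fgf21) and replicate 3 for the other 3 (Fgf5, Fgf10 and Fgf22). Summed skeletal muscle markers were 6449, 11278 and 3527 FPKM in the Ctrl-Treg libraries, and 4706, 3818 and 3330 FPKM in Lenv-Treg, highest in that same replicate 2. Of the 11 tested muscle markers 0 passed in either direction in the main limma fit and in voom. At an unadjusted p of 0.05, 2 were lower in limma, Myh1 and Ryr1. Both passed as lower with the replicate number as a block. After rescaling to TPM, where 57.2% of all tested genes were lower, both and some other muscle markers passed as lower. The median difference of the muscle list was -0.76 (-0.57 after median-ratio scaling). The part of muscle in the ligand values was not tested. In Lenv-Treg, replicate 3 was the lowest library for 6 ligands (Fgf1, Fgf2, Fgf10, Fgf13, Fgf18 and Fgf22).

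The receptors of these ligands were read next. Of 7 receptors and co-receptors 6 were tested, of which 3 fell and 0 rose in limma (0 also at an unadjusted p of 0.05 and in voom), against 30.8% lower and 11% higher over all tested genes. Their median was -0.39 (-0.24 after median-ratio scaling, where 2 were lower, and -0.71 as TPM). Fgfr2, whose epithelial form is the receptor of Fgf7, Fgf10 and Fgf22, was at 28.2, 31.6 and 30.0 FPKM in Ctrl-Treg skin and 10.8, 7.89 and 7.11 FPKM in Lenv-Treg, with no overlap. It fell 3.48-fold (difference -1.71, SE 0.15, limma adjusted p = 0.000194). The table has 1 value per gene, so the splice forms of Fgfr2 were not analysed here. Fgfrl1, a receptor without a kinase domain, fell from 10.4 ± 1.59 to 5.67 ± 0.139 FPKM (-0.77, adjusted p = 0.00200).

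Fgfr4 fell from 1.40 ± 0.324 to 0.686 ± 0.375 FPKM (-0.52, limma adjusted p = 0.0427). Each of 4 libraries, left out alone, ended that call (largest adjusted p = 0.136), as did median-ratio scaling (adjusted p = 0.0971). Fgfr1, the main receptor of mesenchymal cells, was at 20.9 ± 2.64 and 17.3 ± 2.91 FPKM (-0.26, 95% interval -0.60 to 0.08, adjusted p = 0.181), and passed as lower after rescaling to TPM (adjusted p = 0.0343). Fgfr3, a receptor of keratinocytes, was at 16.9 ± 0.997 and 17.7 ± 2.00 FPKM (0.06, 95% interval -0.19 to 0.31, adjusted p = 0.687), a sign that turned as TPM. Klb, the co-receptor of Fgf21, was at 0.968 ± 0.238 and 0.881 ± 0.232 FPKM (adjusted p = 0.706), with a sign that turned after median-ratio scaling, and its relative Kl had 5 and 2 reads over the groups.

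Of the 13 remaining FGF genes only Fgf11 passed the filter. Fgf11, an intracellular homologous factor like Fgf13, was at 2.15, 2.27 and 2.17 FPKM in Ctrl-Treg skin and 0.975, 1.15 and 0.712 FPKM in Lenv-Treg, without overlap, and fell 2.33-fold (-0.72, limma adjusted p = 0.00175). Fgf8 and Fgf15 had 0 in all 6 libraries.

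Around the receptors, 10 of 21 tested genes of heparan sulfate and FGF carriers fell and 2 rose (median -0.39, -0.22 after median-ratio scaling), against 30.8% lower and 11% higher over all tested genes. After median-ratio scaling 6 were lower and 3 higher, against 17.3% and 17.3%. Gpc3, a glypican, fell from 56.7 ± 4.78 to 13.2 ± 4.51 FPKM (-2.08, limma adjusted p = 0.000619), and Sulf2, an enzyme that trims heparan sulfate, fell from 39.6 ± 0.596 to 15.1 ± 2.74 FPKM (-1.34). Fgfbp1, a carrier that releases FGFs from the matrix, rose from 53.8 ± 3.88 to 124 ± 13.9 FPKM (1.19, adjusted p = 0.000357), and Sdc1, an epithelial syndecan, rose from 94.7 ± 1.75 to 147 ± 17.2 FPKM (0.63). Keratinocyte markers rose in the same libraries (7 of 12 rose and 1 fell), and their part in the rise of Fgfbp1 and Sdc1 was not tested.

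Signal transducers were near the share of all tested genes, with 6 of 16 lower (37.5%) and 1 higher (6.25%), and a median of -0.15 (-0.03 after median-ratio scaling, where 3 were lower and 3 higher). Frs2, the adaptor that couples FGF receptors to RAS, fell from 6.20 ± 0.248 to 3.89 ± 0.555 FPKM (-0.56, limma adjusted p = 0.00582), and Braf, a RAF kinase, fell from 4.39 ± 0.232 to 2.69 ± 0.263 FPKM (-0.55). The most abundant members, Hras and Mapk3, did not pass (adjusted p = 0.897 and 0.282).

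Of 16 tested feedback and target genes of FGF signalling 5 were lower and 4 higher (median -0.14, 0.00 after median-ratio scaling). The lower share, 31.2%, was near the 30.8% of all tested genes, and the higher share was 25.0% against 11%. After median-ratio scaling 3 were lower and 5 higher. Ccnd1, a cyclin that drives entry into the cell cycle, fell from 54.5 ± 8.36 to 15.8 ± 1.79 FPKM (-1.72, limma adjusted p = 0.000151). The immediate early gene Ier3 rose from 33.2 ± 3.38 to 124 ± 24.1 FPKM (1.86, adjusted p = 0.000185), and Dusp5, a phosphatase of ERK, rose from 6.40 ± 0.517 to 13.8 ± 0.383 FPKM (1.01). Egr1, another immediate early gene, was at 65.9 ± 13.7 and 83.6 ± 28.6 FPKM (adjusted p = 0.429). Over all 5 pathway lists, 25 of 60 tested genes fell (41.7%, against 30.8% of all tested genes) and 7 rose (11.7%, near the 11% of all). After median-ratio scaling 15 fell (25.0%) and 11 rose (18.3%), where 17.3% of all tested genes were lower and 17.3% higher.

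Markers of the cells that make or border on these ligands moved as well. Their counts are to be read against the 30.8% lower and 11% higher over all tested genes. Of 14 tested dermal papilla markers 12 fell and 0 rose in limma (0 also at an unadjusted p of 0.05 and in voom), with a median of -1.17 and summed levels of 113 to 131 FPKM in Ctrl-Treg skin and 48.0 to 58.4 FPKM in Lenv-Treg. Corin, a protease of the dermal papilla, was at 4.24, 4.40 and 4.69 FPKM in Ctrl-Treg skin and at no more than 0.0326 FPKM in Lenv-Treg skin, on 2793 and 12 reads. Of 13 bulge and outer root sheath markers 12 fell and 0 rose (0 at an unadjusted p of 0.05, 0 in voom), and of 14 hair matrix and inner root sheath markers 13 fell and 0 rose (0 at an unadjusted p of 0.05, 0 in voom). After median-ratio scaling 11 dermal papilla, 12 bulge and 13 hair matrix markers were lower and 0 higher, where 17.3% of all tested genes were lower and 17.3% higher. Some dermal papilla and hair matrix markers, such as Corin and Krt85, met the filter through the Ctrl-Treg libraries alone. Such markers could only come out lower, which limits what these counts show. The summed level of the hair matrix list was 1580, 3345 and 3374 FPKM in Ctrl-Treg skin and 20.4, 35.6 and 21.8 FPKM in Lenv-Treg. Its lowest control library and its highest Lenv-Treg library were replicate 1 and replicate 2, as for Fgf5 and for Fgf7, whose groups overlapped.

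Of 14 fibroblast markers 6 fell (42.9%, against 30.8% of all tested genes) and 2 rose (14.3%, near the 11% of all). Their median was -0.49 and their summed level was 5081 to 6328 FPKM in control libraries and 2779 to 3913 FPKM in the others, with Col1a1 lower (-1.96) and Dcn at 1115 ± 121 and 1273 ± 186 FPKM (adjusted p = 0.449). Of 9 tested adipocyte markers 6 fell and 0 rose (0 at an unadjusted p of 0.05, 0 in voom), and of 11 tested Schwann cell and nerve markers 8 fell and 1 rose. Endothelial markers, of which 2 of 10 rose and 0 fell (0 at an unadjusted p of 0.05, 0 in voom), had a median of 0.37. After median-ratio scaling 4 fibroblast, 5 adipocyte and 6 Schwann cell and nerve markers were lower, with 2, 0 and 1 higher. With that scaling 4 endothelial markers were higher and 0 lower, against 17.3% of all tested genes each way. For gamma delta T cells 3 of 9 markers matched the table by symbol, and no statement is made from them. The part of each cell type in the lower ligand values was not tested, and in bulk tissue fewer cells of a type and less RNA per cell cannot be told apart.

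**Figure D4:**
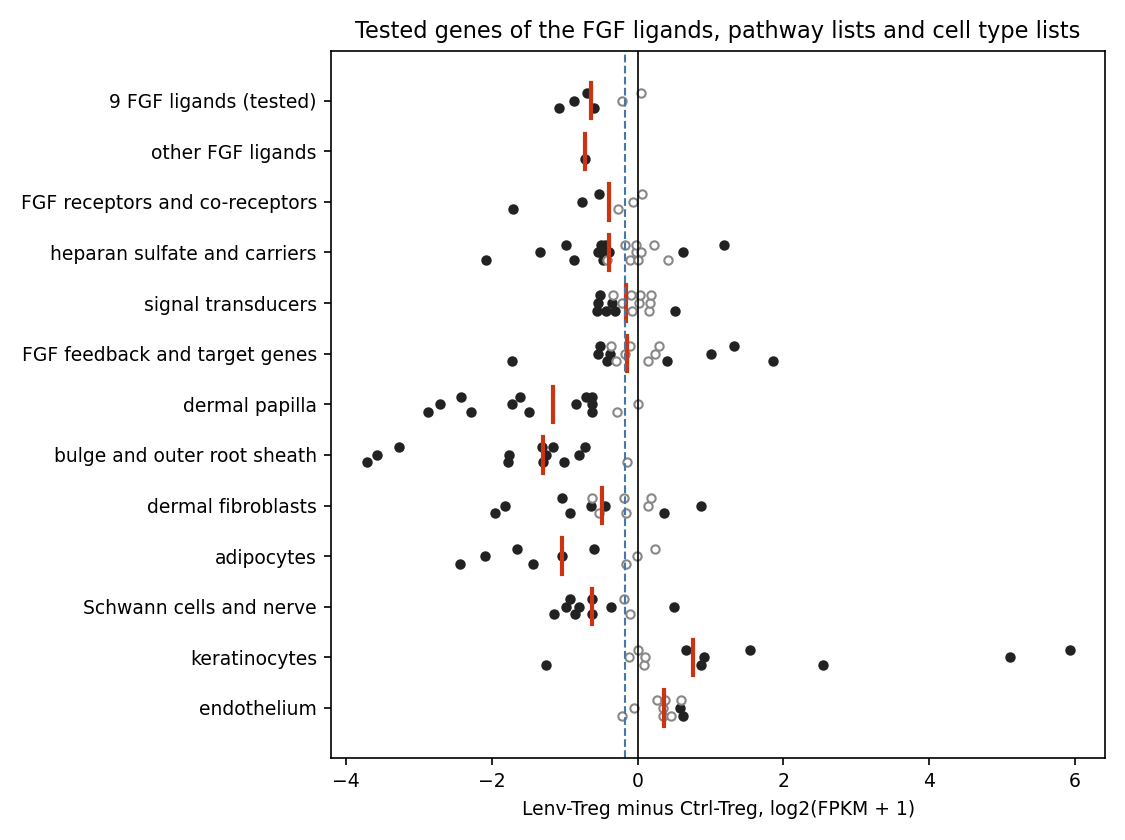
Difference between Lenv-Treg and Ctrl-Treg (horizontal axis, log2(FPKM + 1) units) for each tested gene of the 9 FGF ligands, the 5 pathway lists and 7 of the 11 cell type lists; filled points passed limma's adjusted p of 0.05, red bars are list medians and the dashed line is the median of all tested genes, -0.17. The medians of dermal papilla (-1.17), bulge (-1.30) and adipocyte genes (-1.04) lie further left than that of the FGF ligands (-0.64). So does the 1 tested gene of the other FGF ligands (-0.72). The scale understates changes of low genes such as the ligands, so this order is not one of fold changes. Pparg, at the adipocyte median, fell 2.18-fold in mean FPKM. The medians of keratinocytes (0.77) and endothelium (0.37) lie right of 0.

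For each tested ligand, the 2 most similar genes among the other tested genes of the lists were found by the root mean square difference between profiles of log2(FPKM + 1) over the 6 libraries, each centred on its mean. Fgf2 was closest to Pparg, a regulator of adipocytes (0.10), and Cd34, a marker of the bulge and of other cells (0.13). Fgf10 was closest to Enpp2, a dermal papilla marker (0.09), and Sox10, a Schwann cell and melanocyte factor (0.09). Fgf13 was closest to Braf (0.09) and Frs2 (0.09). Fgf1 was closest to the myelin gene Mbp (0.10) and the feedback gene Spry4 (0.10), and Fgf7 to Map2k2 (0.16) and Grb2 (0.17). Fgf22 was nearest to Postn (0.30) and Enpp2 (0.30). Since the scale understates changes of low genes, near profiles need not share a fold change. In mean FPKM Fgf2 fell 3.66-fold, against 2.18-fold for Pparg and 2.03-fold for Cd34. The falls were 2.46-fold for Fgf10, 1.56-fold for Enpp2 and 2.27-fold for Sox10. They were 2.45-fold for Fgf13, 1.63-fold for Braf and 1.59-fold for Frs2, and 2.12-fold for Fgf22 and 2.46-fold for Postn. A flat profile would lie at 0.17 from Fgf7, so its nearest genes were hardly closer than no pattern at all, while the flat profile lay at 0.57 from Fgf22, 0.55 from Fgf2, 0.36 from Fgf10, 0.31 from Fgf13 and 0.18 from Fgf1.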

How the data were processed

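The authors deposited FPKM values for 35434 genes in 6 libraries; GRCm39 is named as the build per the submitters' processing notes, and the aligner, counting tool, annotation and strand setting were not given in the sources used here. RNA was taken up in TRIzol and libraries were made with a VAHTS kit, per the labels' protocols. Each of the 6 columns matched 1 sample title, and the treatment label set the group.

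Low FPKM values were whole multiples of 1 step per gene. With a constant taken from 396 genes whose exon length in GENCODE M21 matched, whole reads were recovered for all 13945 tested genes (tolerance 0.005 reads plus 1.5e-07 per read), summing to 99.7% of depth. The tests were limma 3.58.1 in R 4.3.3 (lmFit, eBayes with a trend) on log2(FPKM + 1), two-sided, Benjamini-Hochberg over all tested genes, threshold 0.05, and exact permutation of 3 against 3 libraries for single values. Both steps were run on simulated data. The run for limma changed few genes, in equal numbers each way, unlike these data, so it does not vouch for the calls here. No set test was run.

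The ligands and the 16 other lists were chosen with earlier results of these data known. Named genes were all 9 ligands, all receptors, per list the 2 tested genes with the highest mean FPKM and up to 2 others with the smallest p (not all are printed), overlapping genes, and the 2 nearest profiles. Kl and Fgf8 and Fgf15 are given for their low reads, and Cd34, Mbp, Spry4, Map2k2 and Grb2 as nearest profiles. Voom on genes with at least 10 reads and exon lengths of GENCODE M21 are alternatives chosen after seeing the data. Alternatives covered pseudocount, filter, scaling, variance model, sample weights, replicate block, recovered reads, single libraries and threshold.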

Additional observations from a re-analysis of the deposited data

How the results depend on the processing

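The 4 lower calls among the ligands were 3 or 4 under each of the other settings, and 6 with voom on genes of at least 10 reads, which also called Fgf5 and Fgf18; 0 were called higher in any of them. Fgf2, Fgf10 and Fgf13 passed in all, and Fgf22 lost its call in 9 of 18. Differences that changed sign were small and uncalled: Fgf1 under quantile normalization (0.065), Fgf7 as TPM (-0.21) and on leaving out 1 library (-0.106 to 0.184, negative without Lenv-Treg replicate 2), and Fgf21 on leaving out 1 library (-0.087 to 0.048, positive without Ctrl-Treg replicate 2 or Lenv-Treg replicate 1 or 2). Over all tested genes, the counts lower and higher were 4289 and 1532, against 2417 and 2417 after median-ratio scaling, 7970 and 947 as TPM, 2304 and 2232 after quantile normalization and 2246 and 925 at a threshold of 0.01; leaving out 1 library gave 2780 to 3900 lower (2780 without Lenv-Treg replicate 2) and 1152 to 1447 higher. The cause was not tested. For the other FGF pathway genes, 25 lower and 7 higher became 15 and 11 after median-ratio scaling and 14 and 11 after quantile normalization, and leaving out 1 library gave 16 to 25 lower (16 without Lenv-Treg replicate 2) and 6 to 7 higher.

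Same-numbered libraries correlated at 0.20, -0.01 and 0.33 in their deviations from the group means, and libraries of different number at -0.28 to 0.08. These values do not settle whether the numbers pair the samples, and the main fit did not pair them. The fit with the replicate number as a block called 4270 genes lower and 1637 higher, 3 ligands lower, and 25 other pathway genes lower and 8 higher; among the ligands it ended the call of Fgf22 alone (adjusted p = 0.0676). Depth limits Fgf21, Fgf5 and Fgf18, which rest on 15 to 216 reads in the Ctrl-Treg group.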

Other observations

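Fgf23, a hormone-like FGF of phosphate balance that is made mainly by bone, lay outside the filter and went the other way; it was singled out after its values were seen. It had 8, 0 and 0 reads in the Ctrl-Treg libraries and 21, 45 and 108 reads in the Lenv-Treg libraries (0.0736, 0 and 0 FPKM against 0.195, 0.414 and 1.01 FPKM). All 3 Lenv-Treg libraries were above all 3 controls (exact permutation p = 0.1, two-sided, the smallest possible). It did not pass in limma with no filter (adjusted p = 0.0913) and passed with voom on genes with at least 10 reads (adjusted p = 0.0143), where 8.73% of genes were called higher.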
